A study of Mus musculus with 12 samples.

Results

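Replacing the bHLH domain of MyoD by that of NeuroD2 was examined by comparing all binding sites listed for the chimeric protein with all those listed for MyoD, in mouse P19 cells. The comparison covers 39310 sites, 24935 of MyoD and 14375 of the chimera, out of 120275 sites in 5 deposited lists. A MyoD site was called kept where it shared at least 1 base with a chimera site and lost where it did not. A chimera site without any base in a MyoD site was called gained, and the other chimera sites are called carried over.

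P19 is an established mouse embryonal carcinoma line that can turn into neurons or muscle. One group was transduced with MyoD and the other with MD(ND2bHLH), which is MyoD with the NeuroD2 bHLH in place of its own. Both groups were grown alike, in polybrene at 8 µg/ml for infection, fresh medium at 24 h and a neuronal medium from 48 h. Each group had 2 libraries, one with MyoD antibody 6196 and one with MyoD antibody 6975, and 1 deposited list, so the data hold no measure of replicate error and no test was made. The 95% intervals below are exact Clopper-Pearson intervals of a share. They cover counting error only, take sites as independent, and say nothing of the spread between cultures. Lists for NeuroD2 (antibodies 1165 and 1240) and for MD(ND2bHLH)WC and MD(ND2bHLH)WCS, mutants of the chimera called WC and WCS here (the same MyoD antibodies), served to describe the sites. The amount of each protein, the number of reads and the identity of the cells cannot be read from lists of sites, and 2 untransduced libraries, the negative controls, were not analysed here.

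A bHLH domain has a basic part that contacts DNA and a helix-loop-helix part that pairs with a partner, usually an E protein such as the product of Tcf3 or Tcf12. The pair recognises E-boxes, short palindrome-like motifs whose central bases differ in preference between family members. MyoD directs skeletal muscle differentiation and NeuroD2 neuronal differentiation, and the regions outside the bHLH recruit cofactors and contact neighbouring factors. The comparison asks which part of the MyoD binding pattern stays when the rest of the protein is MyoD's and the DNA-contacting domain is not.

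Most MyoD sites were absent from the chimera list. The chimera list held 8352 of 24935 MyoD sites, 33.5% (95% interval 32.9 to 34.1%), and 16583 sites, 66.5%, were lost. Of the 14375 chimera sites 6141, 42.7% (41.9 to 43.5%), were gained and 8234, 57.3%, were carried over. By bases, 3.47 Mb lay in both lists, which is 34.9% of the MyoD bases and 47.2% of the chimera bases. The lists differ in length, and with only the 14375 MyoD sites of highest score against the whole chimera list 45.1% were kept and 55.2% of chimera sites were gained.

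The chimera list nevertheless covered more MyoD sites than any of the other lists did at the same number of sites. The widths of the sites were not matched in this comparison, and wider sites overlap more easily. With each of the other lists shortened to its 14375 sites of highest score, WC held 18.7% of all MyoD sites (18.2 to 19.2%), WCS 18.5% (18.0 to 19.0%) and NeuroD2 14.9% (14.4 to 15.3%), against 33.5% for the chimera. Seen from the chimera, the shortened lists were closer to each other. WC held 46.1% of chimera sites (45.2 to 46.9%), MyoD 44.8% (44.0 to 45.6%), WCS 42.6% (41.8 to 43.4%) and NeuroD2 34.0% (33.2 to 34.8%). The intervals of WC and MyoD overlap, but both shares are of the same chimera sites, and their difference was not tested. The MyoD and chimera lists are also the ones without sites on chromosome X and without sites under 125 bases. Their own limits differ, since the narrowest MyoD site had 125 bases and the narrowest chimera site 200 bases. The set of lists and the protein cannot be told apart in the comparisons with WC, WCS and NeuroD2.

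Whether a MyoD site was kept went with its score. The deposited score is a number above 5 for each site, whose unit is not given in the sources used here, and it served only to order the sites of each list. Each list was divided by score into 10 bins of equal size, numbered upwards so that bin 10 has the highest scores. Kept sites had a median score of 18.4 (quartiles 9.74 and 37.7), lost sites 8.96 (6.61 and 14.4). In bin 1 of the MyoD list 366 of 2494 sites were kept, 14.7% (13.3 to 16.1%). The share rose through every bin, passed 33.5%, the value of the whole list, in bin 7 (36.1%), and reached 77.7% (76.0 to 79.3%) in bin 10, where 557 sites were lost. All 11 MyoD sites of infinite score were kept. Of the 100 MyoD sites of highest score 4 were lost, of the top 1000 sites 147 and of the top 5000 sites 1695.

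Gained sites showed the mirror image in the chimera list. Their median score was 8.04 (quartiles 6.37 and 11.7) against 11.3 for carried-over sites (7.50 and 21.2). In bin 1 of the chimera list 59.7% of sites were gained (57.1 to 62.3%), and in bin 10 the share was 12.4% (10.7 to 14.2%), which is 178 of 1437 sites. Of the 100 chimera sites of highest score 2 were gained, of the top 1000 sites 99. At equal rank the leading chimera sites were therefore gained somewhat less often than the leading MyoD sites were lost: 9.90% (8.12 to 11.9%) of the chimera's top 1000 sites had no MyoD site, and 14.7% (12.6 to 17.0%) of MyoD's top 1000 sites had no chimera site. The MyoD list has more sites to overlap, and the effect of this on the difference was not tested.

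**Figure D1:**
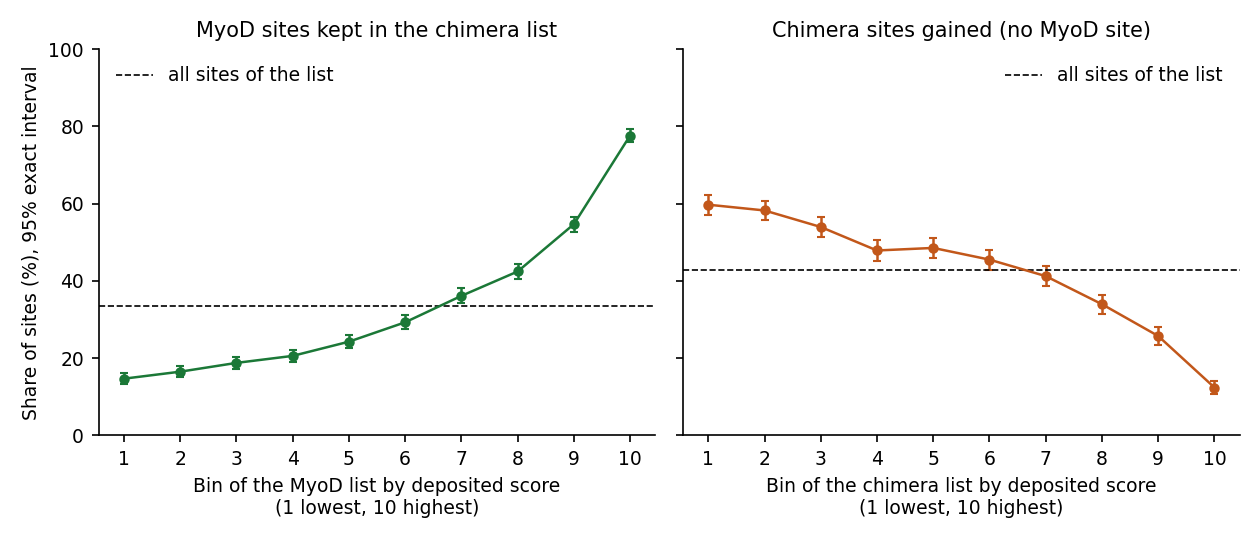
Share of MyoD sites kept in the chimera list (left) and of chimera sites gained (right), in 10 bins of each list by deposited score, with exact 95% intervals; dashed lines mark the share over the whole list. The kept share climbs from 14.7% to 77.7%, and the gained share drops from 59.7% to 12.4%.

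Width went with both classes as well, and wider sites overlap another list more easily by construction. Median width was 394 bases for kept and 340 bases for lost MyoD sites, 396 bases for gained and 462 bases for carried-over chimera sites. The kept share was 16.3% in the narrowest of 4 equal bins of the MyoD list (125 to 307 bases) and 50.5% in the widest (437 to 1947 bases). Within a bin of the score the medians were 286 bases for kept and 271 for lost sites in bin 1, 346 and 337 bases in bin 5, and 490 and 443 bases in bin 10. With every site replaced by 200 bases around its centre 31.0% of MyoD sites were kept and 46.3% of chimera sites gained.

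Where a site was kept, both proteins were mapped to nearly the same place. The 8352 kept sites formed 8384 overlapping pairs, of which 8038 joined 1 MyoD site to 1 chimera site. In these pairs the centres lay a median of 28.5 bases apart (quartiles 11.5 and 69.0), 83.2% had centres within 100 bases, and 99.8% had at least 50% of the shorter site in common. The chimera site was the wider one in 69.4% of pairs, with a median width ratio of 1.12. In 145 places 1 chimera site covered several MyoD sites, 3 at most. Few sites lay at the edge of the rule. Just inside it, 22 MyoD sites shared 1 to 50 bases with a chimera site, with a median score of 10.5, and just outside it 42 lost sites lay within 50 bases of one, with a median score of 7.23.

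Most lost sites were not near misses. The nearest chimera site lay a median of 27997 bases from a lost MyoD site, and only 6.13% of lost sites had one within 1000 bases (5.77 to 6.51%). For the 557 lost sites of bin 10 the median was 27785 bases and 3.95% had a chimera site within 1000 bases (2.49 to 5.92%). Gained sites lay closer to the longer MyoD list, with a median of 16625 bases, and 8.96% had a MyoD site within 1000 bases (8.25 to 9.70%). In windows of 100 kb, 11545 windows held a site of either list. MyoD sites with no chimera site at all made up 3790 of these windows, 32.8%, and 5349 windows, 46.3%, held at least 1 kept site. A further 1229 windows, 10.6%, had lost and gained but no kept sites, and 1177 windows, 10.2%, had gained sites and no MyoD site.

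Kept and lost MyoD sites differed in how often NeuroD2 was listed at the same place, although the NeuroD2 list took no part in the classes. Over all MyoD sites 25.7% overlapped a NeuroD2 site. Among kept sites this was 4211 of 8352, 50.4% (49.3 to 51.5%), and among lost sites 2209 of 16583, 13.3% (12.8 to 13.8%), a difference of 37.1 percentage points (35.9 to 38.3). These levels depend on the length of the lists, since the NeuroD2 list has 31458 sites. With all lists shortened to 14375 sites 33.9% of kept and 6.69% of lost sites overlapped NeuroD2, a difference of 27.3 points. With the full lists the difference was present at every level of the score, between 30.4 points in bin 5 and 39.3 points in bin 10. NeuroD2 overlapped 49.2% of kept and 11.4% of lost sites in bin 1, against 58.0% and 18.7% in bin 10. Put the other way, a MyoD site of bin 1 was kept in 42.6% of cases with a NeuroD2 overlap and in 8.98% without, and one of bin 10 in 91.5% and 64.2%. The NeuroD2 sites at kept MyoD sites also ranked higher in their own list, with a median percentile of 69.1 against 48.0 for those at lost sites. These 2 medians were not split by MyoD score.

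Both mutants gave the same picture. They carry the NeuroD2 bHLH too, but as mutants of the chimera they share more of it than the bHLH, and its MyoD antibodies as well. Which of these the overlap goes with cannot be told apart. WC overlapped 28.8% of all MyoD sites, 60.0% of the kept (59.0 to 61.1%) and 13.0% of the lost sites (12.5 to 13.5%). WCS overlapped 25.1% of all MyoD sites, 52.2% of the kept (51.1 to 53.3%) and 11.5% of the lost sites (11.0 to 12.0%). The gap between kept and lost was between 40.2 and 48.7 points over the 10 bins for WC and between 33.1 and 43.6 points for WCS. Over all 24935 MyoD sites, 16130 were in none of the other 3 lists and 4680 were in all 3. Of the lost sites 13371, 80.6% (80.0 to 81.2%), were in none of the other 3 lists, against 2759 of the kept sites, 33.0% (32.0 to 34.1%). All 3 lists held 42.3% of kept sites and 6.93% of lost sites. A MyoD site was kept in 17.1% of cases when none of the 3 lists held it (16.5 to 17.7%), 46.6% with 1 list, 54.9% with 2 and 75.4% with all 3 (74.2 to 76.7%). The same order held within bin 1, from 6.74% to 53.8%, and within bin 10, from 55.0% to 94.4%.

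Gained and carried-over chimera sites, by contrast, were in the NeuroD2 list about equally often. Over all chimera sites 51.0% overlapped a NeuroD2 site. Of the gained sites 3143 of 6141 did, 51.2% (49.9 to 52.4%), and of the carried-over sites 4189 of 8234, 50.9% (49.8 to 52.0%), a difference of 0.306 points (−1.35 to 1.96). With all lists shortened to 14375 sites both shares were 34.0%. The NeuroD2 sites at gained sites had a median percentile of 72.7 in their own list, against 68.7 at carried-over sites. These 2 medians were not split by chimera score. A chimera site was gained in 42.5% of cases when none of the 3 other lists held it (41.1 to 43.9%), 43.0% with 1 list, 42.6% with 2 and 42.8% with all 3 (41.6 to 44.0%), next to 42.7% for the whole list. Within bins of the score the gained share was less even. From none of the 3 lists to all 3 it went from 54.1% (50.3 to 57.9%) to 64.2% (59.3 to 68.9%) in bin 1 and from 42.5% (38.2 to 46.9%) to 55.2% (50.9 to 59.4%) in bin 5, and in bin 10 it was 11.4% (6.89 to 17.4%) and 12.4% (10.4 to 14.7%). Gained sites have lower scores, and NeuroD2 overlap rises with the score. Bin by bin the gained sites had the higher NeuroD2 share in 9 of 10 bins, by up to 9.72 points in bin 7, where 60.4% of gained (56.3 to 64.3%) and 50.7% of carried-over sites (47.2 to 54.1%) overlapped NeuroD2. In bin 10 the order was the opposite, 69.7% (62.3 to 76.3%) against 72.1% (69.6 to 74.6%), with overlapping intervals. With the 50% of each list of highest score, gained sites were 3.56 points above carried-over sites, and where centres had to lie within 100 bases the difference was −3.74 points, so its sign depends on the setting.

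**Figure D2:**
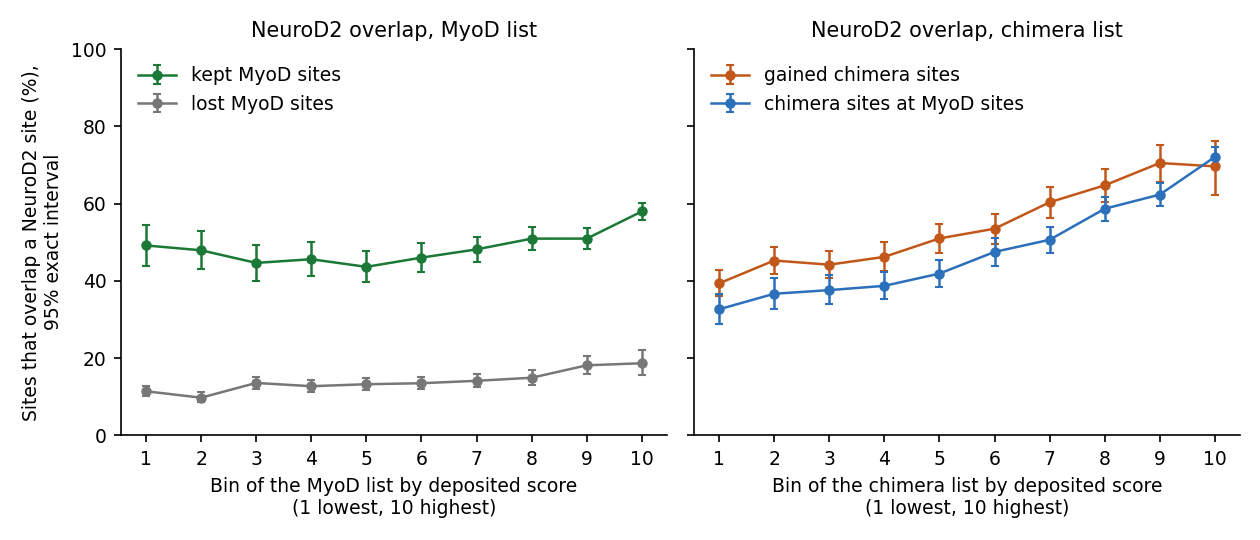
Share of sites that overlap a NeuroD2 site in 10 bins of the MyoD list by score (left; kept and lost sites) and of the chimera list (right; gained and carried-over sites, the latter drawn as chimera sites at MyoD sites), with exact 95% intervals. Kept sites lie between 43.6% and 58.0% and lost sites between 9.75% and 18.7% at every score, whereas the gained and carried-over curves rise together.

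WC and WCS also held gained sites about as often as carried-over ones. WC held 61.0% of all chimera sites, 61.6% of the gained (60.3 to 62.8%) and 60.6% of the carried-over sites (59.6 to 61.7%). WCS held 52.5% of all chimera sites, 52.1% of the gained (50.8 to 53.3%) and 52.8% of the carried-over sites (51.7 to 53.9%). At equal score gained sites were above carried-over sites in all 10 bins, by 3.07 to 13.2 points for WC and by 3.25 to 8.44 points for WCS. The 178 gained and 1259 carried-over sites of bin 10 were also in the 3 other lists in similar shares. WC held 89.9% of the gained (84.5 to 93.9%) and 86.8% of the carried-over sites (84.8 to 88.6%). All 3 other lists held 67.4% of the gained (60.0 to 74.2%) and 67.1% of the carried-over sites (64.4 to 69.7%), and none of them held 10.1% (6.10 to 15.5%) and 11.1% (9.44 to 13.0%). Over the whole chimera list 42.8% of gained and 42.7% of carried-over sites were in all 3 lists, and 32.1% and 32.4% were in none.

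**Figure D3:**
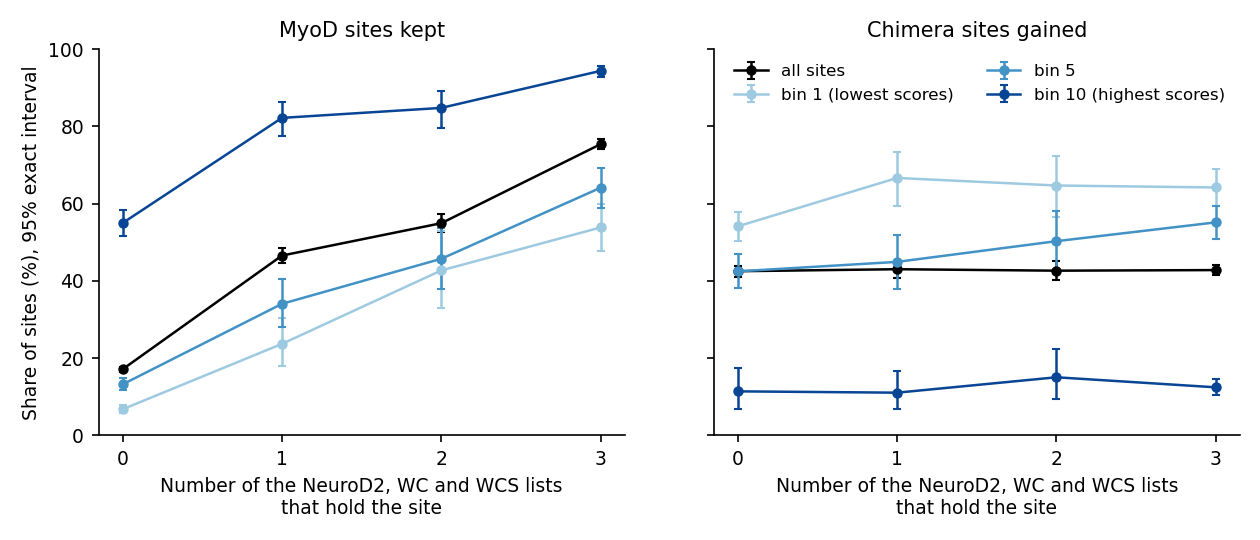
Share of MyoD sites kept (left) and of chimera sites gained (right) against how many of the NeuroD2, WC and WCS lists hold the site, for all sites and for 3 bins of the score, with exact 95% intervals. The kept share rises from 17.1% to 75.4% over all sites, and the gained share over all sites stays between 42.5% and 43.0%, while from 0 to 3 lists it goes from 54.1% to 64.2% in bin 1, from 42.5% to 55.2% in bin 5 and from 11.4% to 12.4% in bin 10.

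Among kept sites the order of scores differed between the MyoD and the chimera list. With 1 list per group, no value between replicates can be set beside this difference. Over the 8038 pairs of 1 site each, Spearman's rho of the MyoD and chimera scores was 0.390, a description across sites that share their libraries. Of the 100 MyoD sites of highest score 30 overlapped one of the 100 chimera sites of highest score, and of the top 500 sites 166 did. Each pair was given a percentile among the 8038 pairs in each list, and the shift is the chimera percentile minus the MyoD percentile. Pairs at NeuroD2 sites moved up by a median of 2.59 points (4049 pairs), and the median shift of pairs outside the NeuroD2 list was −4.32 points (3989 pairs). The pairs were divided by shift into 10 bins. In the bin with the largest downward shift (median −53.7 points) 36.2% overlapped NeuroD2 (32.9 to 39.6%), and in the bin with the largest upward shift (median 55.4 points) 65.8% did (62.4 to 69.0%). For WC these shares were 43.5% and 78.5%, and for WCS 36.3% and 68.2%.

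The relation was seen at all levels of the score. In the lowest of 4 bins of pairs by mean percentile 41.5% of pairs ranked higher by the chimera overlapped NeuroD2 (38.5 to 44.6%) and 34.5% of pairs ranked higher by MyoD (31.6 to 37.6%). In the third bin the shares were 63.1% (60.1 to 66.1%) and 43.9% (40.8 to 47.0%), and in the highest 68.9% (65.8 to 71.8%) and 59.2% (56.1 to 62.1%).

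**Figure D4:**
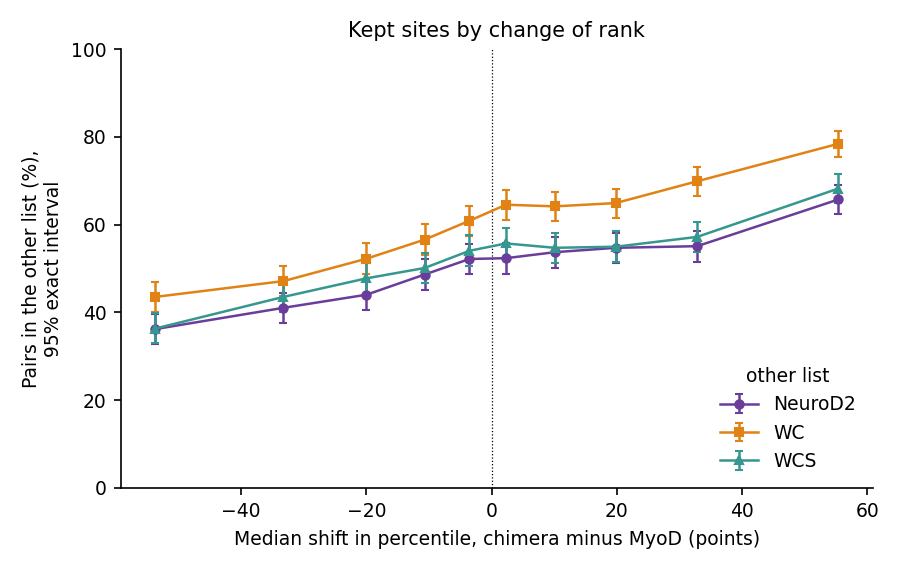
Share of kept pairs that overlap a NeuroD2, WC or WCS site, in 10 bins of the pairs by shift in percentile between the MyoD and the chimera list (x axis, median shift of the bin in points), with exact 95% intervals. From the largest downward to the largest upward shift the NeuroD2 share goes from 36.2% to 65.8% and the WC share from 43.5% to 78.5%.

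The leading sites of each class are named with their mm9 coordinates, and no gene is given because no annotation of that build was used here. The lost sites of highest score lay at chr10:80376780-80377672, with a score of 219.1 and rank 59 in the MyoD list, and at chr1:181168736-181169203, with a score of 183.4. Next came chr14:37845642-37846125 with 182.4, chr14:58770916-58771345 with 181.3 and chr2:167365565-167366074 with 178.8. WC held the first of the sites on chromosome 14, with a score of 10.4, and otherwise none of the 5 was in any other list. That site was also the most isolated, 2135460 bases from the nearest chimera site, while the other 4 had one between 6025 and 76623 bases away.

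The gained sites of highest score included 3 that were in all 3 lists of the proteins with the NeuroD2 bHLH. The first lay at chr6:92430859-92431633, with a score of 118.9 and rank 69 in the chimera list. WC ranked it at 59, WCS at 371 and NeuroD2 at 2428. The site at chr11:118833885-118835599, with a score of 105.7, stood at rank 10 for WC, 9 for WCS and 56 for NeuroD2. All 3 of these lists thus had it among their leading sites, while the nearest MyoD site lay 21223 bases away. The site at chr6:91439787-91440602, with a score of 100.2, was in all 3 other lists, at rank 406 for WC, 2579 for WCS and 7891 for NeuroD2. The site at chr7:31834841-31835292, with a score of 91.6, was in no other list, and that at chr9:61594114-61594738, with a score of 90.8, was in the WC list alone.

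Sites at the top of both lists included places that NeuroD2 lacked. The chimera's site of highest score, chr8:125374456-125375092 with 311.3, overlapped a MyoD site of infinite score and stood at rank 9956 in the NeuroD2 list. Its next site, chr17:71087299-71088531 with 269.3, had rank 60 for MyoD and 15409 for NeuroD2. The site at chr6:115073201-115073775, with 255.6, had rank 4 for MyoD and was in neither the NeuroD2 nor the WCS list. The site at chr2:173875533-173876115, with 238.8, had rank 117 for MyoD, 66 for WC and 1125 for NeuroD2, and the site at chr8:8521463-8522242, with 213.1, had rank 94 for MyoD and was not a NeuroD2 site. Of the 5 MyoD sites that led the kept class, all of infinite score, the chimera ranked chr6:115073011-115073784 at 3, chr15:103000056-103001018 at 8, chr11:77275684-77276367 at 27, chr4:134356374-134357204 at 202 and chr17:25792759-25793594 at 880. NeuroD2 held only the last of these, at rank 25088. These 5 are the widest of the 11 MyoD sites of infinite score.

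The windows of 100 kb with the most lost, kept and gained sites were not the same ones, but several held sites of more than 1 class. The most lost sites lay in the window from 120100001 on chromosome 11, with 13 lost, 2 kept and 2 gained sites, followed by chromosome 8 from 13100001, with 12 lost and 0 chimera sites, and chromosome 11 from 60800001, with 12 lost and 2 kept. Next was the window on chromosome 2 from 29500001, with 10 lost, 3 kept and 1 gained. The window on chromosome 5 from 35500001 had 10 lost and 0 chimera sites, and 4 further windows also had 10 lost sites. Kept sites were densest on chromosome 8 from 122700001, with 11 kept and 3 lost, on chromosome 1 from 155500001 and on chromosome 10 from 77200001, with 9 kept and 2 lost each. These windows had 4, 0 and 6 gained sites in turn. On chromosome 4 from 119900001 and chromosome 5 from 121000001 there were 8 kept sites, as in 6 further windows. Those on chromosomes 4 and 5 also had 2 and 3 gained sites. The 5 windows with the most gained sites had 8 each and lay on chromosome 4 from 132500001, chromosome 5 from 14900001 and from 15100001, chromosome 8 from 123000001 and chromosome 15 from 82700001. The windows on chromosome 5 held 67 and 59 NeuroD2 sites, 63 and 54 WC sites and 60 and 58 WCS sites. The other 3 held between 10 and 19 NeuroD2 sites, 10 and 13 WC sites and 9 and 13 WCS sites. In the window from 15100001 MyoD had 0 sites, whereas the window on chromosome 8 from 123000001 had 9 lost and 2 kept sites beside its gained ones. The other 3 had between 1 and 4 lost and 2 kept sites each.

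Crowded MyoD sites were kept more often than lone ones, and they also had higher scores. MyoD sites without another MyoD site within 5 kb were kept in 31.7% of cases (31.0 to 32.4%), those with 3 or more in 41.0% (37.0 to 45.1%), and the median score rose alongside from 10.3 to 12.9. In bin 1, 14.4% of lone sites (12.7 to 16.1%) and 15.3% of sites with a neighbour (12.9 to 18.0%) were kept, and in bin 10 the shares were 76.3% (74.1 to 78.5%) and 79.5% (76.9 to 82.0%).

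Kept and lost sites were found on all 19 autosomes. The kept share was lowest on chromosome 14, at 29.8% of 762 sites (26.6 to 33.2%), and highest on chromosome 4, at 35.9% of 1786 sites (33.7 to 38.2%). The gained share ran from 38.0% on chromosome 17 (34.3 to 41.7%) to 48.7% on chromosome 9 (45.4 to 51.9%). Chromosome 14 also had the lowest NeuroD2 overlap of MyoD sites, 20.6%, against 27.2% on chromosome 4, and its part in the lower kept share was not tested. These are the extremes of 19 chromosomes.

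**Figure D5:**
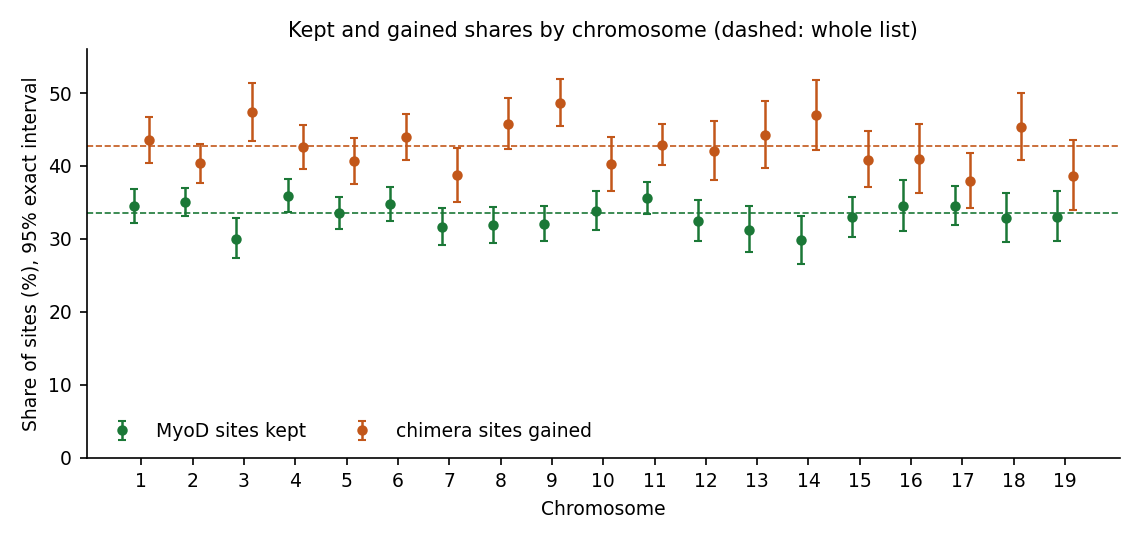
Share of MyoD sites kept and of chimera sites gained on each of the 19 autosomes, with exact 95% intervals; dashed lines mark the whole lists. Kept shares lie between 29.8% and 35.9% and gained shares between 38.0% and 48.7%.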

How the data were processed

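Binding was measured by chromatin immunoprecipitation and sequencing in 12 libraries, 4 of them of MyoD or MD(ND2bHLH). Per the labels' protocols, fixation took 11 min in 1% formaldehyde, and sonication gave fragments of about 150 to 600 bp. The submitters' processing notes name BWA 0.7.5, CASAVA 1.8.2 and build mm9. For the peak caller, filters and pooling of libraries, the step is not given in the sources used here. The authors deposited 1 list per group, with a start, an end and a score for each site; the score ranked sites within a list, with ties ordered by width. Depth is unknown.

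From these lists overlaps (1 base or more), distances between edges, 10 bins by rank and exact 95% intervals were computed; intervals of a difference are normal approximations. The members, classes and tables were chosen with earlier results of these data known. Named are the 5 sites of highest score in each class (kept sites by either list), the 5 windows of 100 kb with most lost, kept and gained sites, and the extreme chromosomes. Results on E-boxes, motifs, annotation, gene lists and the bHLH protein sequences were not run, since no genome or annotation of mm9 and no protein sequence was used here. Tested on simulated data, 6 of 6 kept and gained shares over 19601 sites were recovered. These are the MyoD sites without a close neighbour, and the check covers the counting of overlaps only. Calculations were run in Python 3.11.15 with scipy 1.17.1, numpy 2.4.6, matplotlib 3.10.9 and pandas 2.3.3. The 8 alternatives stand in the closing section.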

Additional observations from a re-analysis of the deposited data

How the results depend on the processing

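Of 72 values under 8 alternatives, 35 stayed within the interval of the reported value and 37 moved. Requiring 50% of the shorter site in common, joining sites within 500 bases, and autosomes with widths of 200 to 2000 bases moved none of the 9 results. Where centres had to lie within 100 bases, 27.0% of MyoD sites were kept and 53.2% of chimera sites gained; the gap between kept and lost sites was 28.9 points for NeuroD2, 38.4 for WC and 31.9 for WCS; gained sites were in the NeuroD2 list in 37.5%, WC in 46.2% and WCS in 39.0% of cases; gained minus carried-over sites was −3.74 points for NeuroD2. With the 50% of each list of highest score, the same quantities were 32.0% and 45.1%; 32.3, 44.8 and 36.8 points; 47.1% for NeuroD2 and 50.1% for WCS; and 3.56 points. With lists shortened to 14375 sites they were 45.1% and 55.2%; 27.3, 39.6 and 35.7 points; and 34.0%, 45.9% and 41.9%. With 200 bases around each centre they were 31.0% and 46.3%; 34.1, 44.4 and 37.7 points; and 46.3%, 55.9% and 47.4%. Without the 287 windows of 100 kb that held 10 or more sites of a list, 32.7% were kept, the WCS gap was 39.3 points, and gained sites were in the NeuroD2 list in 49.4% and in the WCS list in 50.7% of cases. The gaps between kept and lost sites had the same sign under all 8 alternatives. Fewer sites were compared under the shorter lists, and a stricter overlap rule can only remove overlaps; beyond that the cause was not tested. No paired analysis was possible because both libraries of a group share 1 list, and for the same reason no library could be left out. Depth could not be assessed.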
